A study of Mus musculus with 2 samples.

Results

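A set of 10 genes that hold or drive the G1 phase of the cell cycle was followed through the cell classes of the aged mouse hippocampus, namely the cyclin-dependent kinase inhibitors Cdkn1b, Cdkn1c, Cdkn2b, Cdkn2c and Cdkn2d, their targets Cdk4 and Cdk6, the cyclin Ccnd1, and the tumour suppressors Rb1 and Trp53. They were taken by symbol from the gene lists of both libraries, where each of the 10 had 1 entry among 19059 genes. The best-known senescence markers of the same families, Cdkn1a (p21) and Cdkn2a (p16), were left out of the set. Both groups were C57BL/6 mice that were 21 months old at the start and were fed for 3 months. The control group received a diet without tomatidine and the tomatidine group a diet with 0.05% tomatidine, a steroidal alkaloid of tomato plants. The hippocampi of 4 mice were pooled into 1 library for each group, and fixed cells were profiled with gene-specific probe pairs whose products carry unique molecular identifiers (UMIs, each counted as 1 captured probe ligation). With 1 pooled library per group and no map from cells to mice, no comparison between the diets has a replicate, so no test was made, and every interval given is a 95% interval that covers counting error only.

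In the textbook scheme, D-type cyclins such as Ccnd1 bind Cdk4 or Cdk6 and phosphorylate the retinoblastoma protein, which releases E2F factors and lets a cell enter S phase. INK4 inhibitors (Cdkn2b, Cdkn2c and Cdkn2d) bind Cdk4 and Cdk6 and keep cyclin D away, while CIP/KIP inhibitors (Cdkn1b and Cdkn1c) bind assembled cyclin and kinase complexes. Trp53 acts upstream as the stress-responsive transcription factor that induces Cdkn1a. Most cells of the adult hippocampus have left the cycle for good, the main exceptions being oligodendrocyte precursor cells (OPCs), microglia and the few progenitors of the dentate gyrus, so that transcripts of these genes are read here mainly in resting cells.

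Positions refer to mm10. Cdkn2b (ENSMUSG00000073802, chromosome 4, 89306299 to 89311039, minus strand) and Cdkn2c (ENSMUSG00000028551, chromosome 4, 109660876 to 109667189, minus strand) share a chromosome. Cdkn2d (ENSMUSG00000096472) is at chromosome 9, 21288410 to 21291407, minus strand. Among the CIP/KIP genes, Cdkn1b (ENSMUSG00000003031) is at chromosome 6, 134920401 to 134925513, plus strand. Cdkn1c (ENSMUSG00000037664), an imprinted gene, is at chromosome 7, 143458339 to 143461050, minus strand, and Ccnd1 (ENSMUSG00000070348) on the same chromosome and strand from 144929931 to 144939925. Cdk4 (ENSMUSG00000006728) spans chromosome 10 from 127063534 to 127067920 on the plus strand and Cdk6 (ENSMUSG00000040274) chromosome 5 from 3341485 to 3531008 on the plus strand. Rb1 (ENSMUSG00000022105) covers chromosome 14, 73183673 to 73325822, minus strand, and Trp53 (ENSMUSG00000059552) chromosome 11 from 69580359 to 69591873 on the plus strand. All are protein-coding, and each probe pair read a short target of the transcript, counted per gene.

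The control library held 15912 deposited cells and the tomatidine library 15185, of which 15115 and 14502 were kept, with medians of 7077 and 7408 UMIs per cell, and 292 cell barcodes occurred in both libraries. Clusters were named from markers, and 12 classes had at least 50 cells in each library, 6 of them neuronal (CA1 and CA3 pyramidal, dentate granule, interneuron, other excitatory, and thalamic/subcortical neuron-like, the last holding neurons of the thalamus or of other subcortical regions) and 6 not (OPC, astrocyte, oligodendrocyte, microglia, endothelial and meningeal fibroblast-like). The hippocampal label held in that markers of CA1, CA3 and dentate granule neurons each defined a class, although cells with markers of thalamus and choroid plexus were also present. Choroid plexus-like cells numbered 347 in the control and 32 in the tomatidine library, and 15.4% and 19.7% of the kept cells stayed unnamed. Median depth ran in the control library from 3131.5 UMIs in microglia-like cells to 30346 in thalamic/subcortical neuron-like cells, so levels are given as UMIs per 1000000 UMIs of a class (CPM). A fall in a whole library could come from fewer cells of a type or from less RNA per cell, which cannot be told apart there. CPM values are compared within a gene and never between genes, since each gene has its own probes.

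All 10 genes had at least 100 UMIs over the compared classes. Only 2 of the 10 had a leading class, defined as the class highest in both libraries and at least 2-fold above the next in each, namely Cdkn2b in endothelial-like cells and Ccnd1 in OPC-like cells. Among all 14242 genes with 100 UMIs, 17.3% had such a class. A split between neurons and all other classes, looked for after the levels had been seen, was found for 2 further genes of opposite direction. Cdkn2d was higher in every neuronal class than in every other class of both libraries, as were 6.09% of all genes, and Cdkn2c was lower in every neuronal class, as were 5.19%. The split of Cdkn2d was lost with at most 6000 genes and 10% mitochondrial UMIs per cell, limits that the study's quality control states, and with clusters named by leading genes alone, while that of Cdkn2c was found under every setting run.

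**Figure D1:**
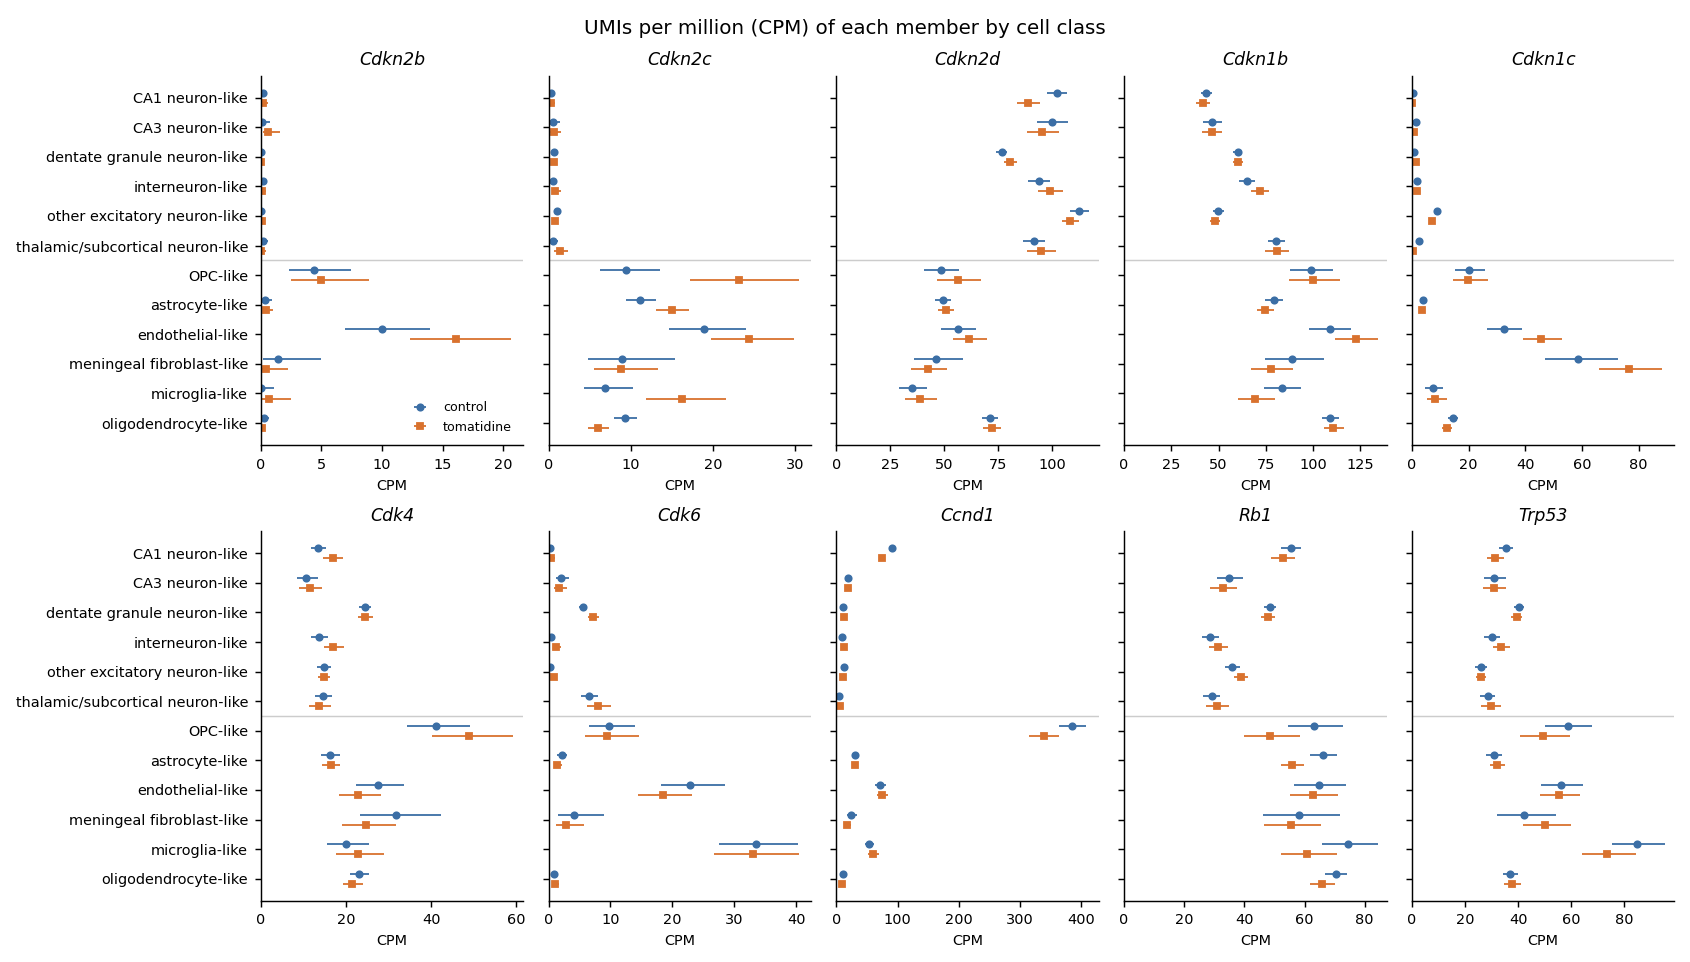
UMIs per 1000000 UMIs (CPM, horizontal axis, linear and starting at 0) of each of the 10 genes in the 12 compared cell classes (vertical axis, neuronal classes above the grey line), with circles for the control library, squares for the tomatidine library and bars for exact 95% Poisson intervals of counting error. Cdkn2c lies at 0.310 to 1.33 CPM in all neuronal classes and at 5.97 CPM or more elsewhere, Cdkn2d shows the opposite order, and Ccnd1 stands out in OPC-like cells at 386 and 339 CPM.

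Among the INK4 inhibitors, Cdkn2b (p15, the inhibitor induced by TGF-beta) was the scarcest transcript to count. In endothelial-like cells it had 35 UMIs (10.0 CPM) in the control library and 62 UMIs (16.1 CPM) in the tomatidine library. The next class, OPC-like cells, held 13 UMIs (4.36 CPM) and 11 UMIs (4.98 CPM), so endothelial-like cells stood 2.30-fold and 3.23-fold above it. Every other compared class had at most 1.38 CPM, and no UMI was counted in the control microglia-like cells (where the floor of 3 counts set for a count of 0 equals 0.888 CPM), the control other excitatory neuron-like cells (0.139 CPM) or the tomatidine thalamic/subcortical neuron-like cells (0.363 CPM). Cdkn2b was seen in 9.60% of control and 11.7% of tomatidine endothelial-like cells, at medians of 6146.5 and 4526 UMIs per cell. Thinning each cell to 1500 UMIs, which removes the effect of depth and leaves out shallower cells, gave expected shares of 1.72% and 2.47%, with 48 and 75 cells left out, against 0.00224% and 0.0141% in dentate granule neuron-like cells, whose medians were 14019.5 and 12643 UMIs. Of the 11 pairs of neighbours in its order of classes, 8 had overlapping library values, so below the endothelial-like cells the order carries little.

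Cdkn2c (p18, an INK4 protein known from dividing precursors) was found in glial and vascular cells and was close to absent from neurons. The 6 neuronal classes lay between 0.324 and 1.02 CPM in the control library and between 0.310 and 1.33 CPM in the tomatidine library. The 6 other classes lay between 6.81 and 18.9 CPM and between 5.97 and 24.4 CPM. The ranges of neuronal and other classes did not meet in either library, although the neurons were the deepest cells. Endothelial-like cells led in both libraries with 66 UMIs (18.9 CPM) and 94 UMIs (24.4 CPM). Behind them, OPC-like cells had 28 UMIs (9.39 CPM) and 51 UMIs (23.1 CPM), and astrocyte-like cells 143 UMIs (11.1 CPM) and 223 UMIs (15.0 CPM). The library values of 8 of the 11 pairs of neighbours overlapped, the endothelial-like and OPC-like cells among them.

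Cdkn2d (p19INK4d, the INK4 inhibitor kept in postmitotic neurons) had the reverse order. Neuronal classes ranged from 76.5 to 112 CPM in the control library and from 80.5 to 108 CPM in the tomatidine library. The other classes ranged from 34.9 to 70.9 CPM and from 38.6 to 72.0 CPM, with oligodendrocyte-like cells highest among them. Other excitatory neuron-like cells headed the order with 2432 UMIs (112 CPM) and 3217 UMIs (108 CPM). Microglia-like cells closed it with 118 UMIs (34.9 CPM) and 112 UMIs (38.6 CPM). The distance between dentate granule neuron-like cells, the lowest neuronal class at 76.5 and 80.5 CPM, and oligodendrocyte-like cells at 70.9 and 72.0 CPM was small, and 5 of the 11 pairs of neighbours overlapped. Single clusters crossed it. A cluster of thalamic/subcortical neuron-like cells had 133 UMIs (61.0 CPM) and 37 UMIs (74.4 CPM). A small cluster of oligodendrocyte-like cells had 70 UMIs (77.4 CPM) and 87 UMIs (85.6 CPM).

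Of the CIP/KIP inhibitors, Cdkn1b (p27, the general brake on cyclin E and Cdk2 in resting cells) was present in every compared class within a narrow range. Over these 12 classes its highest level was 2.51-fold above its lowest in the control library and 2.95-fold in the tomatidine library. Lymphocyte-like cells, too few to be compared in the tomatidine library, had more, at 201 CPM (32 UMIs) and 165 CPM (20 UMIs). Endothelial-like cells (109 and 123 CPM), oligodendrocyte-like cells (109 and 111 CPM) and OPC-like cells (98.9 and 100.1 CPM) were at the top. CA3 pyramidal neuron-like cells (46.6 and 46.5 CPM) and CA1 pyramidal neuron-like cells (43.6 and 41.6 CPM) were at the bottom. The order of the 12 classes was close to the same in both libraries, with Spearman's rho of 0.94 across classes, which share their 2 libraries and are no replicates. Thalamic/subcortical neuron-like cells, at 80.6 and 80.8 CPM, lay above astrocyte-like cells at 79.2 and 74.7 CPM, so no split between neurons and other cells was seen.

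Cdkn1c (p57, the imprinted inhibitor of embryonic growth) had the widest spread of the CIP/KIP genes. Meningeal fibroblast-like cells carried 85 UMIs (58.7 CPM) in the control library and 192 UMIs (76.6 CPM) in the tomatidine library, followed by endothelial-like cells with 113 UMIs (32.4 CPM) and 176 UMIs (45.6 CPM). The gap between these was 1.82-fold and 1.68-fold. OPC-like cells had 20.1 and 19.9 CPM and oligodendrocyte-like cells 14.5 and 12.3 CPM. Among neurons it was found mostly in other excitatory neuron-like cells, at 192 UMIs (8.88 CPM) and 212 UMIs (7.13 CPM). CA1 pyramidal neuron-like cells had 7 and 2 UMIs, the lowest level at 0.378 and 0.155 CPM.

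Cdkn1c was highest of all in choroid plexus-like cells, which were too few in the tomatidine library to be compared. There it had 618 UMIs (227 CPM) in 347 control cells and 95 UMIs (223 CPM) in 32 tomatidine cells. Over the whole library Cdkn1c was lower on tomatidine, with 1628 against 1181 UMIs and a log2 ratio of -0.42 (-0.53 to -0.31). Outside choroid plexus-like cells it was not, with 1010 against 1086 UMIs and a log2 ratio of 0.13 (0.01 to 0.26). The 10 choroid plexus markers were also counted in other classes, at 142 to 2365 CPM in control and at 29.2 to 357 CPM in tomatidine cells. If all of those UMIs came with Cdkn1c in the ratio of choroid plexus-like cells of the same library, they would bring 2.23 CPM of Cdkn1c to control meningeal fibroblast-like cells, 3.8% of the level there, and 2.18 CPM to control endothelial-like cells, 6.75% of the level. In CA1 pyramidal neuron-like cells the same ratio would account for 80.6% and 81.9% of the few UMIs counted.

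Cdk4, the kinase that starts retinoblastoma phosphorylation, was counted in all classes. OPC-like cells were highest with 123 UMIs (41.2 CPM) in the control library and 108 UMIs (48.9 CPM) in the tomatidine library. Meningeal fibroblast-like cells followed with 31.8 and 24.7 CPM, and dentate granule neuron-like cells, at 24.5 CPM in both libraries, were the highest neurons. CA3 pyramidal neuron-like cells were lowest, with 10.7 and 11.4 CPM. Of the neighbours in this order, 6 of 11 pairs overlapped.

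Cdk6, the partner kinase that is prominent in blood cells, had a narrower range of cells. Microglia-like cells held 113 UMIs (33.4 CPM) and 96 UMIs (33.1 CPM), and endothelial-like cells 80 UMIs (22.9 CPM) and 71 UMIs (18.4 CPM). Dentate granule neuron-like cells had 5.52 and 7.23 CPM and thalamic/subcortical neuron-like cells 6.56 and 7.98 CPM, while CA1 pyramidal neuron-like cells had 4 and 6 UMIs (0.216 and 0.466 CPM). Among the classes with too few cells to compare, lymphocyte-like cells had 10 and 7 UMIs (62.9 and 57.8 CPM) and mural-like cells 10 and 11 UMIs (51.9 and 57.8 CPM). The order of classes for Cdk6 was the steadiest of all 10 genes between the libraries, with a Spearman's rho of 0.99.

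Ccnd1 (cyclin D1, the D-type cyclin that follows growth factor signals) was the clearest class-restricted gene. OPC-like cells carried 1151 UMIs (386 CPM) in the control library and 748 UMIs (339 CPM) in the tomatidine library. That was 4.26-fold above the next class of the control library, CA1 pyramidal neuron-like cells with 1677 UMIs (90.6 CPM), and 4.52-fold above the next class of the tomatidine library, endothelial-like cells with 289 UMIs (74.9 CPM). CA1 pyramidal neuron-like cells of the tomatidine library followed closely, with 954 UMIs (74.0 CPM). The other neurons were far below CA1, from 4.94 to 19.2 CPM in the control library, with thalamic/subcortical neuron-like cells last at 4.94 and 5.69 CPM. Oligodendrocyte-like cells, the mature form of the OPC lineage, had 10.6 and 9.95 CPM. Ccnd1 was seen in 71.2% and 62.7% of OPC-like cells, with medians of 6665 and 5564.5 UMIs per cell. After thinning to 1500 UMIs the expected shares were 40.3% (35.0 to 45.7) and 35.3%, with 35 and 40 cells left out, against 1.04% and 0.798% in thalamic/subcortical neuron-like cells, whose medians were 30346 and 25903 UMIs.

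Rb1, the pocket protein that holds back E2F factors until cyclin D kinases act on it, was higher in most non-neuronal classes. Microglia-like cells had 74.6 and 61.0 CPM, oligodendrocyte-like cells 70.3 and 65.9 CPM, and astrocyte-like cells 66.3 and 56.0 CPM. Interneuron-like cells (28.6 and 31.3 CPM) and thalamic/subcortical neuron-like cells (29.1 and 30.7 CPM) were lowest. In the control library the neuronal classes, at 28.6 to 55.4 CPM, lay below all other classes, at 58.1 to 74.6 CPM. In the tomatidine library the ranges met (they stayed apart at resolution 0.3 and with the marker gate), since OPC-like cells at 48.5 CPM were below CA1 pyramidal neuron-like cells at 52.8 CPM. The split did not hold for every cluster. A cluster of other excitatory neuron-like cells (59 control and 123 tomatidine cells) had 200 UMIs (95.3 CPM) and 467 UMIs (101 CPM) of Rb1.

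Trp53 (p53) was highest in microglia-like cells, with 287 UMIs (84.9 CPM) and 214 UMIs (73.7 CPM). OPC-like cells had 58.7 and 49.4 CPM and endothelial-like cells 56.1 and 55.5 CPM. Dentate granule neuron-like cells, at 40.4 and 39.4 CPM, were the highest neurons, and other excitatory neuron-like cells, at 26.0 CPM in both libraries, were the lowest class. The neighbours overlapped in 5 of 11 pairs.

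Trp53 also showed how far depth sets the share of cells in which such a transcript is seen. Without thinning, 55.9% of control CA1 pyramidal neuron-like cells had a Trp53 UMI at a median of 28183 UMIs per cell, against 24.6% of control microglia-like cells at a median of 3131.5. Thinned to 1500 UMIs, the expected shares were 5.11% and 11.6%, in the order of the CPM values. The tomatidine library gave the same turn, from 45.2% and 19.7% to 4.61% and 11.1%. Shares of cells are therefore given after thinning as well, beside a class with few such cells.

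**Figure D2:**
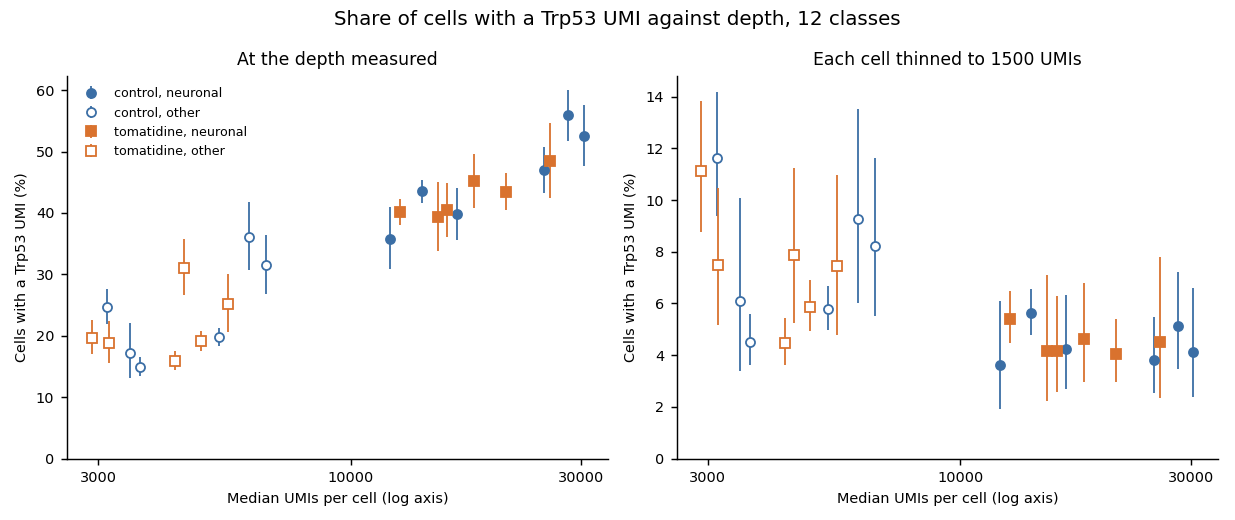
Share of cells with at least 1 Trp53 UMI (vertical axis, percent) in each compared class against the median UMIs per cell of the class (horizontal log axis), before (left panel) and after (right panel) thinning every cell to 1500 UMIs, with circles for control, squares for tomatidine, filled symbols for neuronal classes and bars for 95% binomial intervals. Before thinning the deep neuronal classes are highest, with control CA1 pyramidal neuron-like cells at 55.9%, and after thinning control microglia-like cells, at 11.6%, lie above them.

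Between the diets, the question was whether tomatidine moved any of these regulators in any class. Of the 120 combinations of gene and class, 84 had at least 100 UMIs in the libraries together and were read as measured. Cdkn1b, Cdkn2d, Trp53, Rb1 and Cdk4 were measured in all 12 classes, Ccnd1 in 11, Cdkn1c in 6, Cdk6 in 4, Cdkn2c in 3 and Cdkn2b in 0. The log2 ratio of tomatidine over control CPM ran from -0.63 to 0.50 with a median of -0.00, and 65 of the 84 lay within 0.25 of 0 on either side. A single combination passed the fold used here, an absolute log2 ratio of at least 0.5, and it was Cdkn2c in oligodendrocyte-like cells. Other ways of forming the classes gave from 1 to 8 such combinations. The counting interval held 0 in 67 of the 84, lay above 0 in 9 and below 0 in 8. The share of all genes whose interval left out 0 was not computed, so these counts are not read as a trait of the members.

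**Figure D3:**
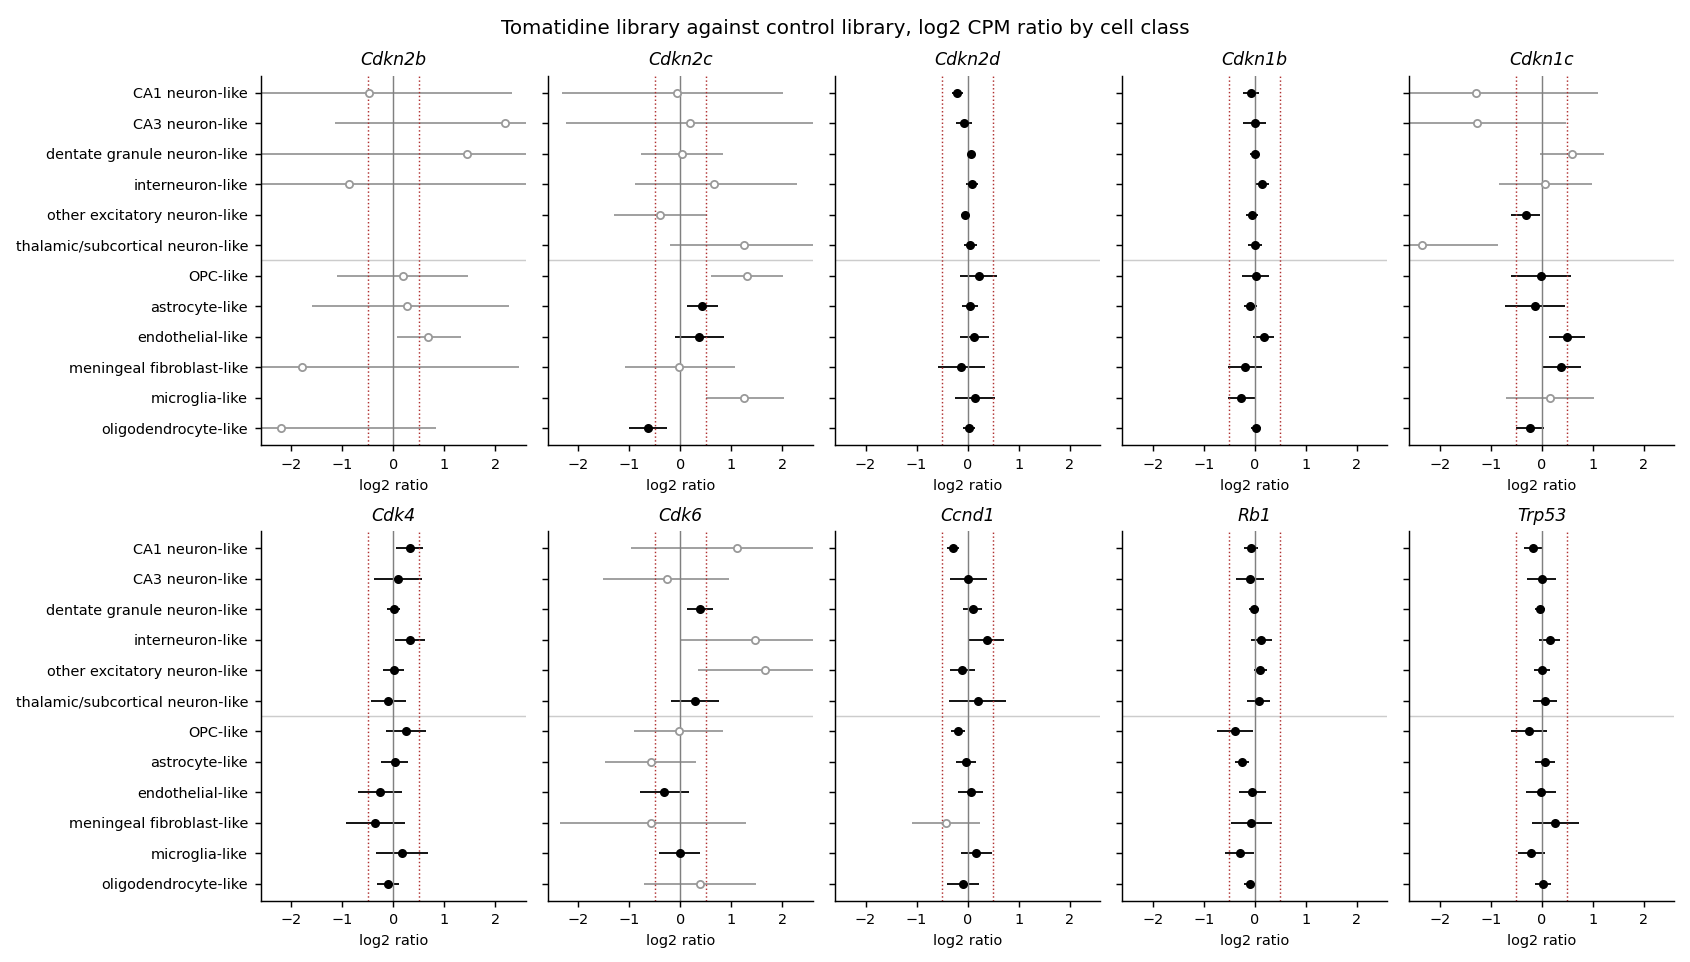
Log2 ratio of CPM, tomatidine library over control library (horizontal axis), for each of the 10 genes in the 12 compared classes (vertical axis, neuronal classes above the grey line), with bars for the 95% counting interval (cut at the axis limits), dotted lines at 0.5 on either side, filled points for measured combinations and open grey points for those under 100 UMIs. Among measured combinations only Cdkn2c in oligodendrocyte-like cells, at -0.63, passes 0.5 in size, and the values of Cdkn1b, Cdkn2d and Trp53 stay between -0.26 and 0.25.

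Set against all genes, the small number of members past the fold was close to the share of all genes past it in most classes. In the neuronal classes, none of the measured members passed, which were 6 in CA1 pyramidal neuron-like cells where 7.14% of all genes did, 6 in CA3 pyramidal neuron-like cells (4.05%), 7 in dentate granule neuron-like cells (1.83%), 6 in interneuron-like cells (3.32%), 7 in other excitatory neuron-like cells (2.4%) and 7 in thalamic/subcortical neuron-like cells (6.37%). Outside the neurons, none of the measured members passed among 7 in OPC-like cells (5.83% of all genes), 8 in astrocyte-like cells (3.26%), 9 in endothelial-like cells (5.75%), 6 in meningeal fibroblast-like cells (6.82%) and 7 in microglia-like cells (5.69%). In oligodendrocyte-like cells 1 of 8 measured members passed, against 5.01% of all genes, of which 493 were higher and 71 lower. The members' median log2 ratio ran from -0.12 in CA1 pyramidal neuron-like cells to 0.15 in interneuron-like cells, and that of all genes from -0.03 to 0.06.

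Cdkn2c in oligodendrocyte-like cells was lower on tomatidine. It had 182 UMIs (9.27 CPM) in 3062 control cells and 90 UMIs (5.97 CPM) in 2376 tomatidine cells, a log2 ratio of -0.63 (-1.02 to -0.26). Both large clusters of the class had a ratio below 0, with 10.4 and 6.80 CPM (log2 ratio -0.61, -1.06 to -0.17) in the cluster marked by Klk6, and 7.86 and 5.06 CPM (-0.63, -1.43 to 0.11, from 51 and 22 UMIs) in the cluster marked by Hapln2, where the interval held 0. The share of cells with a Cdkn2c UMI was 4.90% and 3.20% at medians of 5331.5 and 4889.5 UMIs. Thinned, it was 1.27% (0.90 to 1.74) and 0.787% (0.468 to 1.24), with 58 and 71 cells left out, so the intervals met, and in CA1 pyramidal neuron-like cells, the class with the fewest, it was 0.0377% and 0.0475%. The ratio passed the fold under 10 of 10 other ways of forming classes and scaling, from -0.85 to -0.54.

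Marker levels in the oligodendrocyte-like cells moved as well. The cluster marked by Klk6 held 1541 control and 1354 tomatidine cells, and the cluster marked by Hapln2 1469 and 979. Of 14 oligodendrocyte markers 5 were higher on tomatidine, and their summed level was 67013 CPM in the control library and 62194 CPM in the tomatidine library. Excitatory neuron markers were higher in 21 of 25, with sums of 1928 and 2272 CPM, and astrocyte markers in 13 of 15, with sums of 1605 and 1858 CPM, while choroid plexus markers were lower in 10 of 10, with 622 and 78.4 CPM. None of these markers was at 0 in either library, and their part in the Cdkn2c value was not tested. The opposite direction was found for Cdkn2c in astrocyte-like cells, where it was higher with a log2 ratio of 0.43 (0.12 to 0.74), short of the fold.

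In OPC-like and microglia-like cells Cdkn2c stayed below 100 UMIs (except in microglia-like cells formed by the marker gate, with 132 UMIs and a log2 ratio of 1.51) but lay furthest from the control library. OPC-like cells had 28 UMIs (9.39 CPM) in the control library and 51 UMIs (23.1 CPM) in the tomatidine library, a log2 ratio of 1.30 (0.61 to 2.02). Microglia-like cells had 23 UMIs (6.81 CPM) and 47 UMIs (16.2 CPM), a log2 ratio of 1.25 (0.50 to 2.04). Most of the tomatidine UMIs sat in a handful of cells that also carried Mki67 or Top2a, markers of dividing cells that were singled out after their values had been seen.

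Cells with a UMI of Mki67 or Top2a were 1 of 378 control OPC-like cells (0.265%) and 8 of 346 tomatidine cells (2.31%, 1.0 to 4.50). In microglia-like cells they were 2 of 910 (0.220%) and 11 of 808 (1.36%, 0.682 to 2.42), at the medians of 6665, 5564.5, 3131.5 and 2909.5 UMIs per cell of these classes and libraries. Thinned to 1500 UMIs, with 35, 40, 185 and 181 cells left out, the expected shares were 0.0180% (up to 1.11) and 1.37% (0.390 to 3.40) in OPC-like cells, and 0.0816% (up to 0.666) and 0.986% (0.369 to 2.11) in microglia-like cells, so the intervals of the libraries overlapped in both classes. CA3 pyramidal neuron-like cells, at medians of 12077.5 and 15131.5 UMIs, had 0 of 360 and 0 of 300 such cells, which allows shares of up to 0.833% and 1%. Those 8 tomatidine OPC-like cells held 37 of the 51 Cdkn2c UMIs, in 4 of the cells, and the 11 microglia-like cells held 28 of the 47, in 6 of the cells. Without all such cells OPC-like cells had 8.45 and 6.63 CPM of Cdkn2c, a log2 ratio of -0.35 (-1.41 to 0.65), and microglia-like cells 6.83 and 6.69 CPM, a log2 ratio of -0.03 (-0.99 to 0.91). Leaving such cells out did not touch the oligodendrocyte-like value, which stayed at -0.63, or the astrocyte-like value, at 0.42.

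**Figure D4:**
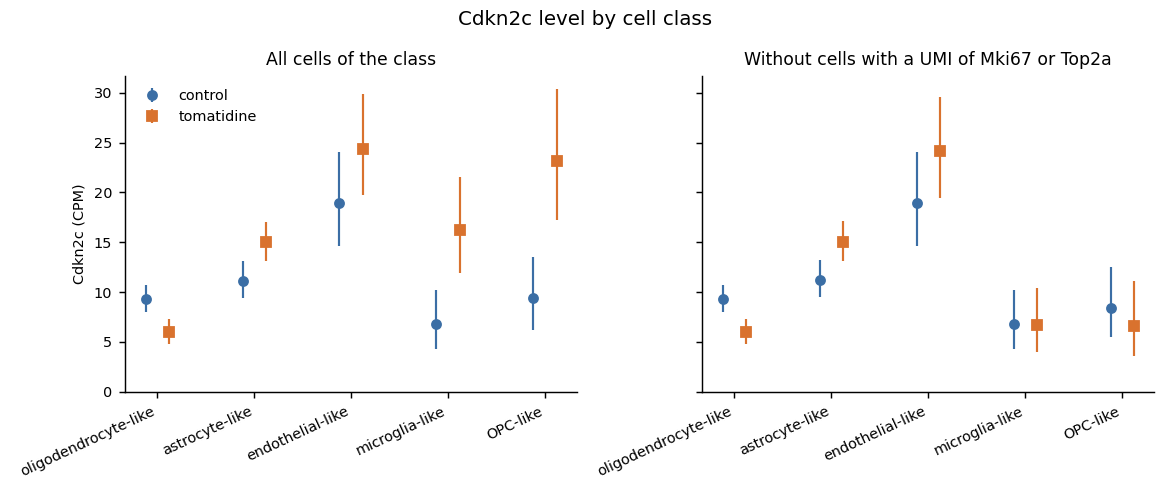
Cdkn2c UMIs per 1000000 UMIs (CPM, vertical axis, starting at 0) in 5 non-neuronal classes of the control (circles) and tomatidine (squares) libraries, with all cells (left panel) and without cells that carry a UMI of Mki67 or Top2a (right panel), with bars for exact 95% Poisson intervals. The tomatidine values of OPC-like and microglia-like cells, 23.1 and 16.2 CPM, drop to 6.63 and 6.69 CPM without those cells, beside the control values of 8.45 and 6.83 CPM.

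The other members did not share 1 direction in these cells. In the 8 tomatidine OPC-like cells, Ccnd1 stood at 758 CPM from 72 UMIs in 5 of the cells, against 320 CPM in the other OPC-like cells, while Cdk4 stood at 21 CPM from 2 UMIs, against 50.2 CPM. In the 11 tomatidine microglia-like cells, Ccnd1 stood at 47.2 CPM from 3 UMIs, against 60.9 CPM in the other microglia-like cells. Cdkn2d stood at 189 CPM from 12 UMIs in 6 of the cells, against 35.2 CPM. Cdkn1b stood at 78.7 CPM from 5 UMIs, against 69.4 CPM, and Cdkn1c and Cdkn2b had no UMI. The list of proliferation genes, which includes Mki67 and Top2a, summed over the whole class to 144 CPM (429 UMIs) in control OPC-like cells and 217 CPM (479 UMIs) in tomatidine OPC-like cells, and to 122 CPM (412 UMIs) and 185 CPM (537 UMIs) in microglia-like cells. Over all kept cells, those with a UMI of Mki67 or Top2a numbered 29 and 41.

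In OPC-like cells the other regulators lay closer to the control library. Ccnd1 was lower with a log2 ratio of -0.19 (-0.32 to -0.05), from 386 to 339 CPM. Rb1 was lower with -0.38 (-0.73 to -0.03), from 188 UMIs (63.0 CPM) to 107 UMIs (48.5 CPM). Neither passed the fold.

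The log2 ratio of Rb1 was below 0 in all 6 non-neuronal classes, though only -0.04 in endothelial-like and -0.07 in meningeal fibroblast-like cells. The interval lay below 0 in 3 of them. The share of all genes lower in all 6 was not computed. Besides OPC-like cells these were astrocyte-like cells, with 66.3 and 56.0 CPM and a log2 ratio of -0.24 (-0.38 to -0.10), and microglia-like cells, with 74.6 and 61.0 CPM and -0.29 (-0.58 to -0.01). No neuronal class had an interval for Rb1 that left out 0. Over the 12 classes its log2 ratio ran from -0.38 to 0.13. Markers of other cell types also moved. Oligodendrocyte markers summed to 15633 and 8646 CPM in OPC-like cells, and to 8435 and 6320 CPM in astrocyte-like cells. Border macrophage markers summed to 3882 and 1215 CPM in microglia-like cells. Astrocyte markers went the other way, at 5191 and 6044 CPM in OPC-like and 3922 and 4997 CPM in microglia-like cells. The part of these markers in the Rb1 values was not tested.

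In endothelial-like cells, the cells of the blood-brain barrier, the 5 inhibitors of the set had log2 ratios above 0, where the median of all genes was 0.02. The share of all genes above 0 was not computed. Cdkn1a, an inhibitor outside the set, was lower there, with a log2 ratio of -0.38 (-0.59 to -0.17). Cdkn1c had 113 UMIs (32.4 CPM) and 176 UMIs (45.6 CPM), a log2 ratio of 0.50 (0.15 to 0.85) that lay just under the fold. Cdkn2b had 35 and 62 UMIs in all, too few to be measured, with a log2 ratio of 0.68 (0.06 to 1.32). Cdkn2c had 66 and 94 UMIs and 0.37 (-0.10 to 0.84), an interval that held 0, as did those of Cdkn1b with 0.17 (-0.03 to 0.37) and Cdkn2d with 0.13 (-0.15 to 0.41). Of 15 endothelial markers 12 were also higher, with sums of 15920 and 17420 CPM, and of 13 mural markers 11, with sums of 6956 and 8572 CPM. Astrocyte markers were lower in 15 of 15, at 10413 and 7803 CPM, and choroid plexus markers in 10 of 10, at 2316 and 94.1 CPM, with 2 of the latter at 0 in the tomatidine library. Of 5 erythroid markers 0 were higher, with sums of 4302 and 2077 CPM. The part of these markers in the inhibitors' values was not tested. Cdkn1c was also higher in meningeal fibroblast-like cells, by a log2 ratio of 0.38 (0.01 to 0.77), and lower in other excitatory neuron-like cells, by -0.32 (-0.60 to -0.03).

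Among measured neuronal combinations, the log2 ratios whose interval left out 0 lay between -0.32 and 0.39. In CA1 pyramidal neuron-like cells, Ccnd1 had a log2 ratio of -0.29 (-0.41 to -0.18), Cdkn2d of -0.20 (-0.31 to -0.10) and Cdk4 of 0.32 (0.05 to 0.59). The Ccnd1 ratio passed the fold with classes formed at resolution 0.3, without integration or by a marker gate, at -0.66, -0.54 and -0.56. These cells also differed in depth, with medians of 28183 and 18029 UMIs, and 734 of all genes were past the fold upward and 35 downward there. The part of depth in these values was not tested. In dentate granule neuron-like cells Cdk6 had 260 UMIs (5.52 CPM) and 251 UMIs (7.23 CPM), a log2 ratio of 0.39 (0.13 to 0.64), and Cdkn2d 0.07 (0.00 to 0.15). In interneuron-like cells Cdkn1b, Cdk4 and Ccnd1 were higher by log2 ratios of 0.15 (0.01 to 0.28), 0.33 (0.03 to 0.62) and 0.37 (0.03 to 0.72). For Ccnd1 the clusters of this class differed. The cluster marked by Sst had 51 and 77 UMIs, 0.86 (0.33 to 1.40). The cluster marked by Vip had 81 and 79 UMIs, -0.10 (-0.57 to 0.37). Below 100 UMIs, larger ratios rested on few counts. Cdkn1c had 35 and 4 UMIs in thalamic/subcortical neuron-like cells, a log2 ratio of -2.35 (-4.31 to -0.87). That class joined a cluster of 279 control and 233 tomatidine cells with a cluster of 126 and 37. In the larger cluster Cdkn1c had 18 and 4 UMIs, -1.54 (-3.57 to 0.06), an interval that held 0. Cdk6 had 6 and 26 UMIs in other excitatory neuron-like cells, 1.66 (0.34 to 3.23), and 6 and 15 UMIs in interneuron-like cells, 1.46 (0.01 to 3.11).

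The members with the most UMIs gave the tightest bounds. For Trp53, the interval held 0 in all 12 classes, with log2 ratios from -0.25 to 0.25. Cdkn1b ran from -0.26 in microglia-like cells to 0.17 in endothelial-like cells, and in dentate granule neuron-like cells its level was 60.1 CPM in both libraries, from 2831 and 2086 UMIs. Over whole libraries the interval held 0 for Cdkn1b at -0.02 (-0.06 to 0.01), Cdk4 at 0.01 (-0.05 to 0.08) and Cdk6 at -0.09 (-0.24 to 0.06). It left out 0 for Cdkn2d at 0.09 (0.06 to 0.12) and Trp53 at -0.05 (-0.098 to -0.002). The same held for Rb1 at -0.14 (-0.18 to -0.10) and Ccnd1 at -0.17 (-0.23 to -0.12). Cdkn2c, at 0.26 (0.10 to 0.42), and Cdkn2b, at 0.50 (0.09 to 0.93), were higher. Whole libraries include the unnamed cells, and the part of cell composition in these ratios was not tested. With 1 library per diet these values bound the difference between the libraries and not the effect of the diet.

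For reference, among the 12 compared classes Cdkn1a was highest in endothelial-like cells, at 113 and 87.1 CPM. Cdkn2a was highest there in OPC-like cells, at 25.5 and 15.4 CPM.

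Genes with the most similar pattern were sought for each member by Pearson's r of log2(CPM + 1) over 24 points (12 classes in 2 libraries) among 12918 genes with at least 500 UMIs. The points share libraries and cell depth, so r is a description. Cdkn2c was most like Npepl1 (r = 0.97), then Cpt1a, the gate of mitochondrial fatty acid oxidation, and Rhbdd1. Cdkn2d was most like the chaperone gene Hsp90ab1 (0.95), then Eid1 and Dnaja3. Cdkn2b followed Hyal2 (0.92), the endothelial gene Clec14a and Abhd2, and Cdkn1c followed Cenpj (0.89), Syne2 and Phldb2. Cdkn1b was nearest to Sptssa (0.95), Rdx and Dusp16. Trp53 was nearest to Sppl2a (0.95), Arhgef1 and Arhgap17, and Cdk6 to Nbeal2 (0.92), Elk3 and Pdia5. Rb1 went with Samd1 (0.90), Chd1l and Atf7, Cdk4 with Tnpo1 (0.90), Ints14 and Epc1, and Ccnd1 with Slc35f5 (0.85), Zbed3 and Desi2. Between members the strongest values were -0.82 for Cdkn2c with Cdkn2d, -0.81 for Cdkn2d with Trp53, and 0.81 for Trp53 with Cdk6.

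The wider G1 pathway was read from 61 listed genes, of which 59 were in the files, in 438 measured combinations of gene and class. Of these, 5 were higher past the fold and 5 lower, where 1.83% to 7.14% of all genes passed it in the single classes, so the list did not stand above the background. The D cyclins gave 2 of them, both of Ccnd2, which in OPC-like cells was lower with 230 and 117 UMIs and a log2 ratio of -0.54, and in thalamic/subcortical neuron-like cells was higher with 0.54. Skp2, the ubiquitin ligase subunit that marks Cdkn1b for degradation, was higher in CA1 pyramidal neuron-like cells (0.64) and lower in CA3 pyramidal neuron-like cells (-0.65). The G1/S cyclins Ccne1 and Ccna1 gave 0.81 in oligodendrocyte-like cells, from 60 and 81 UMIs (3.06 and 5.37 CPM), and -0.56 (-1.17 to 0.04) in interneuron-like cells. The counting interval held 0 for Ccna1 and for Aurka and left it out for the other calls. The remaining calls were Ring1, a Polycomb subunit that silences the INK4 locus, in CA1 pyramidal neuron-like cells (0.51), Aurka in dentate granule neuron-like cells (0.54, -0.01 to 1.10), E2f5 in endothelial-like cells (-0.54, -1.09 to -0.01) and Foxo4 in thalamic/subcortical neuron-like cells (-0.50). None of the genes of p53 control, such as Mdm2 and Atm, passed in 60 measured combinations, nor did the pocket proteins Rbl1 and Rbl2 in 14.

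A leading class was found for 3 of the 51 pathway genes with enough UMIs, a smaller share than the 17.3% of all genes. Ccnd2, the D-type cyclin of many neural progenitors, led in CA3 pyramidal neuron-like cells at 228 and 236 CPM, against 83.9 and 96.0 CPM in the next class. The cyclins D therefore had different leading classes, OPC-like cells for Ccnd1 and CA3 pyramidal neuron-like cells for Ccnd2. Chek2, a DNA damage kinase upstream of Trp53, led in microglia-like cells at 8.0 and 9.0 CPM, the class where Trp53 was also highest. Mcm5, a subunit of the replicative helicase, led in OPC-like cells at 14.1 and 25.8 CPM.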

How the data were processed

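Single-cell libraries of fixed hippocampal cells (10x Genomics probe-based kit) came from 2 groups, control and tomatidine, with 1 library of 4 pooled mice each. The authors deposited raw UMI counts per gene and cell on mm10. The matrix headers name Cell Ranger 7.1.0 and the submitters' processing notes 8.0.0. Probe counts read 1 short target per probe pair, so levels between genes are not comparable.

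Cells with at least 500 UMIs, more than 250 genes, complexity over 0.8 (log10 genes over log10 UMIs) and under 20% mitochondrial UMIs were kept, which is 1 of 2 filters that the study states. The other, with upper limits on genes and a stricter mitochondrial limit, was run as an alternative (at most 6000 genes and 10%). After the filter, the highest 2% of Scrublet scores in each library were removed (308 and 296 cells; the caller's own threshold marked 0 and 2, so it had not worked). Cells were clustered with Seurat 5.3.0 (R 4.3.3; 2000 variable genes, 30 components, RPCA integration, resolution 0.8, 37 clusters), leaving 81 genes, the members among them, out of the clustering. A cluster took the class with the most markers raised at least 2-fold and seen in at least 10% of its cells, where at least 3 were raised (for all classes but excitatory neurons also a fraction of 0.5 of the list) and where either markers of that class alone led its top 10 genes by fold, or no marker was among them and it had 1.5 times the raised markers of the next class. Names end in "-like" because no annotation was used, and differences from the study may come from the rebuilt names. UMIs were summed per class and library and scaled to CPM with Python 3.11.15, numpy 2.4.6, scipy 1.17.1, pandas 2.3.3 and scanpy 1.11.5. Intervals are exact Poisson for levels, Clopper-Pearson for shares and conditional binomial for ratios, at 95%, and cover counting error only; those of thinned shares use the expected number of cells. edgeR 4.0.16 served only for the TMM alternative. Ratios and leading classes were tested on simulated counts. Coordinates come from GENCODE vM21 for mm10, and no library was taken apart by mouse.

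The members and lists were chosen with earlier results of these data known. Named genes are the 10 members, Cdkn1a and Cdkn2a, the pathway genes past the fold or with a leading class, and per member the 3 genes with the highest r. Alternatives covered the filter, doublets, resolution, integration, class naming, scaling, the mean over cells, the UMI minimum, the fold and the thinning depth.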

Additional observations from a re-analysis of the deposited data

How the results depend on the processing

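The count of combinations past the fold, 1 in the values reported, was 2 with at most 6000 genes and 10% mitochondrial UMIs, 2 at resolution 0.3, 2 at resolution 1.5, 3 without integration, 8 with a marker gate for each cell, 6 with the mean over cells, 9 with at least 20 UMIs and 0 with a fold of 1 on the log2 scale. With clusters named by their leading genes alone, an alternative chosen after seeing the data, it was 4. It remained 1 without doublet removal, with TMM scaling, and without cells carrying Mki67 or Top2a (also added after seeing the data). Genes with a leading class were 2 or 3 under every setting run, Cdkn1c in meningeal fibroblast-like cells being the addition with the gene and mitochondrial limits, the marker gate and a 1.5-fold lead. Genes with all neuronal classes apart from all others, 2 as reported, were 1 with names from leading genes alone (Cdkn2c), 3 at resolution 0.3 (Cdkn2c, Cdkn2d and Rb1) and 4 with the marker gate (Cdkn1c, Cdkn2c, Cdkn2d and Rb1). With the gene and mitochondrial limits of the study's quality control they were 2, Cdkn2c and Cdkn1b, so Cdkn2d lost its place there. Ccnd1 in CA1 pyramidal neuron-like cells, at -0.29, was -0.66 at resolution 0.3, -0.54 without integration and -0.56 with the marker gate, and the cause was not tested. With the gate, endothelial-like cells gave 0.53 for Cdkn1c, 0.56 for Cdkn2c, -0.70 for Cdk4 and -0.67 for Cdk6, and microglia-like cells 1.51 for Cdkn2c. Of 826 recomputed ratios 775 moved by less than their counting interval, 51 by more. The only ratio past the fold, Cdkn2c in oligodendrocyte-like cells, kept its sign, while Ccnd1 in thalamic/subcortical neuron-like cells went from 0.20 to -0.79 with the mean over cells, the cause not tested. No paired analysis was possible because each group is 1 library, so the groups share fewer than 2 replicate numbers. Counts under 100 UMIs, as for Cdkn2b, limit what could be detected.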
